A study of Mus musculus with 6 samples.

Results

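Pluripotency genes are switched on in embryonic stem cells and shut down as these cells take on a fate. Here 10 such genes were followed in neural cultures that had, or had not, been exposed to valproate. They were the transcription factor genes Pou5f1 (Oct4), Nanog, Zfp42 (Rex1), Esrrb and Utf1, the genes Dppa3 (Stella) and Dppa5a, the Nodal co-receptor gene Tdgf1 (Cripto), the RNA-binding protein gene Lin28a and the long non-coding RNA gene Lncenc1. All 10 were measured, by 11 probe sets, among the 19938 genes that a probe set named alone. The genes were chosen by name, with results of the same comparison in view: Lncenc1 was among the largest falls, at rank 9 of all genes. Values of these 10 genes are therefore given as a description, with no test of their own; where a count of them past the threshold of the fit over all genes is given, nothing is read from it.

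The cells were W4, a mouse embryonic stem cell line, kept for 16 days in a neural medium with bFGF, insulin, laminin, B27 and N2 on coated plates. In 1 group the medium held 300 uM of valproate (VPA) during those 16 days; VPA is used against epilepsy, blocks histone deacetylases and harms the developing nervous system. The other group was given only the solvent, phosphate-buffered saline (PBS), and both groups went through the same differentiation. Each group had 3 arrays of total RNA, described as biological replicates of a single line. No array of undifferentiated W4 cells was used here, so the level these genes had at the start is not known from these data.

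Oct4, Nanog and Esrrb belong to a network of transcription factors that activate each other and hold stem cells in the undifferentiated state. Rex1, Dppa5a, Utf1 and Stella are used as marks of that state, and Stella also marks early germ cells. Cripto is needed for Nodal signalling, and Lin28a blocks the maturation of let-7 microRNAs in stem cells and early neural progenitors. Lncenc1 is a nuclear non-coding transcript of naive embryonic stem cells, where it has been linked to the expression of glycolysis genes.

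Because Lncenc1 parted from the other genes in these arrays, its promoter is shown beside that of Nanog, the core network gene with the textbook pair of Oct and Sox elements. Both are the 250 bases before the RefSeq transcription start in build GRCm38.p6, on the plus strand, at chr13:97434720-97434969 for Lncenc1 and at chr6:122707239-122707488 for the first of the Nanog starts. Capitals mark matches to any of 5 short motifs, searched on both strands. Those were ATGCAAA of the octamer, then CATTGT for Sox factors, then AAGGTCA for Esrrb, then GGGTGTG for Klf factors and the GC box GGGCGG.
Lncenc1: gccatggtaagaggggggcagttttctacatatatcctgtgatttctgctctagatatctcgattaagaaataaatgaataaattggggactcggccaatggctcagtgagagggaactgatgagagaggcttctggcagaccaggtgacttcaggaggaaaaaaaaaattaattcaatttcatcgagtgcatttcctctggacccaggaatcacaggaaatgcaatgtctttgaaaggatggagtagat
Nanog: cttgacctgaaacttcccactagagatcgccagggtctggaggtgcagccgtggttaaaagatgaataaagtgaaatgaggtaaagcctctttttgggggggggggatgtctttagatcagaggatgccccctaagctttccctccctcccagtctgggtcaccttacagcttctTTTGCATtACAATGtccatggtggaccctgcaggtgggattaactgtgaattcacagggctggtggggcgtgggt

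The Lncenc1 window held none of the 5 motifs, which says only that these letters are not in these 250 bases. The Nanog window held the octamer letters 75 bases and the Sox letters 67 bases before the start, both on the minus strand, with 1 base between them. Over 32851 promoter windows of the same length, 4.12% held the octamer letters and 10.7% the Sox letters. The Esrrb, Klf and GC box letters were in 4.08%, 6.93% and 32.7% of windows. Among the 8 of 10 genes with a promoter entry, Zfp42 also held the octamer letters, Lin28a and the second Pou5f1 start the Sox letters, and Utf1 4 GC boxes. Esrrb and Zfp42 held the Klf letters, and Pou5f1, Tdgf1 and Zfp42 also had GC boxes. Lncenc1 had 3 CpG pairs in its window, against a median of 6 over all windows, and the first Nanog window and the second Esrrb window also had 3. The second Esrrb window likewise held none of the 5 motifs.

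The general picture was that 9 of the 10 genes lay near the background of the arrays or only a little above it in both groups, and that their groups overlapped. Lncenc1 alone had separate groups. Array medians were 6.99 to 7.03 on the log2 scale. No detection calls were used, so the 1027 olfactory receptor genes, which are mostly silent outside the nose, served as a gauge. The 95th percentile of their mean levels was 6.15, and a mean below it was not told apart from background. This gauge is rough, because probe sets differ in their own background. The olfactory receptor genes were themselves higher with VPA by a median of 0.18 (log2), 233 of them past an adjusted p of 0.05 by limma (22.7%). Their changes ran from -0.03 to 0.43 between the 5th and the 95th percentile. Small rises of dim genes are to be read beside that shift, and its part in them was not tested.

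**Figure D1:**
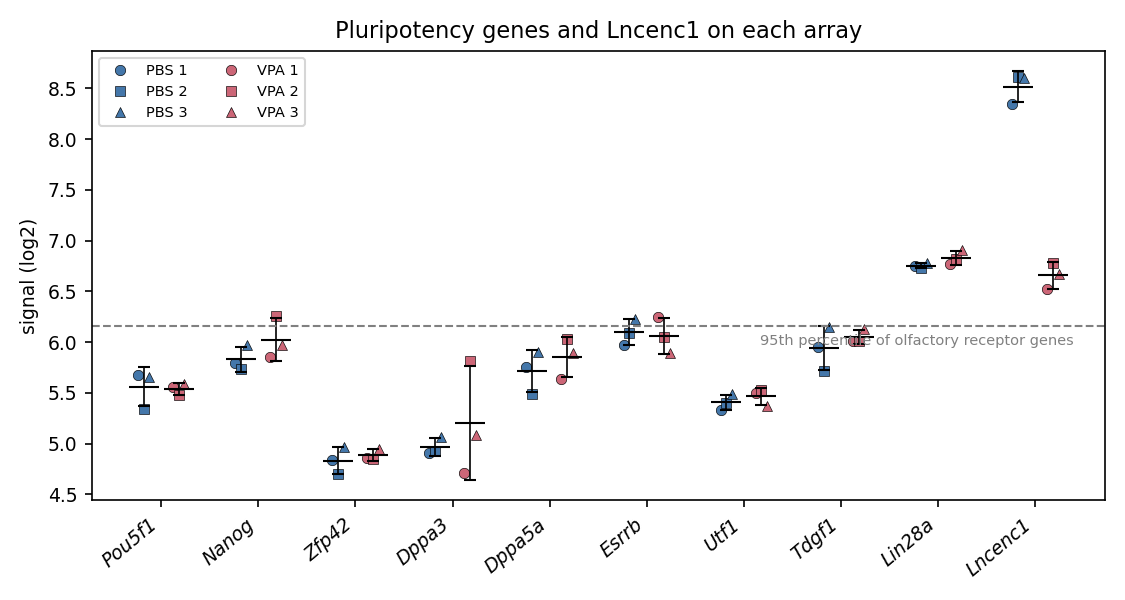
Signal (log2, vertical axis) of the 10 genes on each of 6 arrays, 3 with PBS (blue) and 3 with VPA (red), with the group mean and SD as bars; the dashed line is the background gauge from olfactory receptor genes (95th percentile). For 8 genes the means of both groups lie below the line, Lin28a lies above it in both groups, and the PBS and VPA arrays of Lncenc1 do not overlap.

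Lncenc1 was clearly expressed in the control cultures and much lower with VPA. With PBS its signal was 8.34, 8.61 and 8.60 on replicates 1 to 3, and with VPA it was 6.52, 6.78 and 6.67 (log2). Every VPA array lay below every PBS array, with a gap of 1.56 between the lowest PBS and the highest VPA value, against a range of 0.27 within PBS and 0.26 within VPA. The means were 8.52 ± 0.15 and 6.66 ± 0.13 (log2, SD, n = 3). The difference, VPA minus PBS, was -1.86 (SE 0.09), with a 95% confidence interval of -2.07 to -1.65, so the VPA signal was 3.63-fold lower. The VPA mean was still above the background gauge. In RNA from whole cultures, fewer cells of a type and less RNA per cell cannot be told apart. By limma, 8 of 10 neuron markers fell and 1 rose in the same arrays, while of 12 neural progenitor markers 3 rose and 1 fell, where 29.2% of all genes passed the same threshold. Of 8 trophoblast markers 3 rose and 1 fell, and of 8 primitive endoderm markers 2 rose and 1 fell. The changes ran from -1.02 to 0.56 in the trophoblast list and from -1.90 to 1.54 in the primitive endoderm list, whose lowest value was about that of Lncenc1. The part of these markers in the fall of Lncenc1 was not tested. The mean signal of the neuron list was 11.10 to 11.16 over the PBS arrays and 10.90 to 10.93 over the VPA arrays, and that of the progenitor list 9.80 to 9.87 and 9.90 to 10.02.

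For Oct4 both means lay below the gauge, where a fall of the transcript cannot be told apart from background. The signal of Pou5f1 was 5.68, 5.34 and 5.66 with PBS and 5.56, 5.48 and 5.59 with VPA. The groups overlapped, and the difference was -0.02 (SE 0.09, 95% confidence interval -0.23 to 0.19). Of the olfactory receptor genes 84.3% had a lower mean than this probe set, so it lay within their range. For Nanog the values were 5.79, 5.73 and 5.97 with PBS and 5.85, 6.26 and 5.97 with VPA. VPA replicate 2 stood highest and the other VPA arrays lay within or at the edge of the PBS range. The difference of Nanog was 0.19 (SE 0.11, -0.05 to 0.44). Esrrb, an orphan nuclear receptor that can sustain self-renewal, read 5.97, 6.09 and 6.23 with PBS and 6.25, 6.05 and 5.89 with VPA. Its groups overlapped nearly completely, with a difference of -0.03 (SE 0.10, -0.26 to 0.19).

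The genes used as marks of the undifferentiated state were as low. Zfp42 gave 4.84, 4.70 and 4.96 with PBS and 4.86, 4.85 and 4.95 with VPA, a difference of 0.05 (SE 0.08, -0.12 to 0.23). Utf1, a chromatin-associated factor of stem cells, gave 5.33, 5.40 and 5.49 and then 5.50, 5.53 and 5.37, a difference of 0.06 (SE 0.07, -0.09 to 0.21). Dppa5a, which encodes an RNA-binding KH-domain protein, gave 5.75, 5.49 and 5.91 with PBS and 5.64, 6.03 and 5.89 with VPA. In all 3 genes the groups overlapped, and both means lay below the gauge. The difference of Dppa5a was 0.14 (SE 0.12, -0.14 to 0.42).

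Dppa3 was the one gene with a wide spread. Its brighter probe set read 4.91, 4.93 and 5.07 with PBS but 4.71, 5.82 and 5.08 with VPA, so that VPA replicate 1 lay below every PBS array and VPA replicate 2 above them. The VPA values spanned 1.10, against 0.16 with PBS. The difference was 0.24 (SE 0.23, -0.28 to 0.75), and without VPA replicate 2 it was -0.07. The other Dppa3 probe set, annotated with the same transcript, did not show the high array: it read 4.19, 4.12 and 4.22 with PBS and 4.33, 4.18 and 4.28 with VPA. Both probe sets had means below the gauge, and 72.1% of olfactory receptor genes lay below the brighter one. Several pluripotency genes have processed copies in the genome, and signal from a copy cannot be told apart from the gene here.

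Tdgf1 stayed near the gauge, with 5.95, 5.72 and 6.15 for PBS and 6.02, 6.01 and 6.13 for VPA. The VPA arrays lay inside the PBS range, and the difference was 0.11 (SE 0.10, -0.12 to 0.34). Lin28a was, with Lncenc1, one of the 2 genes above the gauge. It read 6.75, 6.73 and 6.78 with PBS and 6.77, 6.82 and 6.90 with VPA. The spread within PBS was small, at 0.05, and VPA replicate 1 lay inside it, while the other VPA arrays lay above it. The difference was 0.08 (SE 0.06), and its interval of -0.05 to 0.21 leaves room for at most a 1.16-fold rise at its upper end.

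**Figure D2:**
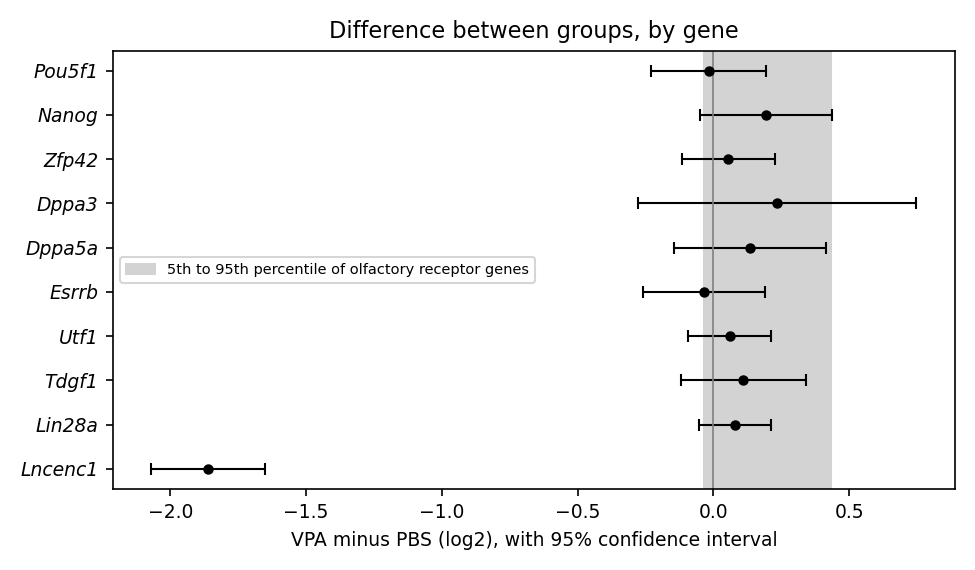
Difference between the group means (VPA minus PBS, log2, horizontal axis) with its 95% confidence interval for each gene, beside the changes of olfactory receptor genes from their 5th to their 95th percentile (grey band). The interval includes 0 for 9 genes, and that of Lncenc1 runs from -2.07 to -1.65.

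Set out together, the differences of the 9 genes other than Lncenc1 ran from -0.03 to 0.24, and their intervals from -0.28 to 0.75. A miss of the threshold does not show that these genes were alike in both groups; the intervals give what the arrays leave possible, and for signals at background they bear on the signal rather than on the transcript. The groups did not overlap for 1 of the 10 genes, where 44% of all genes had separate groups. At an adjusted p under 0.05 by limma 1 of the 10 was called, which was lower with VPA, against 29.2% of all genes (15.7% lower and 13.6% higher). Quantile normalization turned that balance over, from 2702 higher and 3123 lower to 3147 higher and 2671 lower. The share of all genes rests on 5825 calls, and without PBS replicate 2 these were 3836. Because this comparison took part in the choice of genes, nothing is read from these counts. The median difference was 0.07 over the 10 genes and 0.00130 over all genes.

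The low genes shared an order among the PBS arrays more than among the VPA arrays. Of the 8 genes with both means below the gauge, 7 were highest on PBS replicate 3 among the PBS arrays and 5 were lowest on PBS replicate 2. The olfactory receptor genes were also highest on PBS replicate 3 most often, in 48.7% of cases (37.2% of all genes), but lowest on PBS replicate 2 in 36.4%. Among the VPA arrays the 8 genes had no common order: replicates 1, 2 and 3 were highest for 1, 4 and 3 of them and lowest for 3, 3 and 2. Of the olfactory receptor genes, 58% were highest on VPA replicate 2 and 77.7% lowest on VPA replicate 1. What set the array order of the dim pluripotency genes was not tested. VPA replicate 1 was also further from the other VPA arrays over all genes, by a median of 0.12 and 0.13, where VPA replicates 2 and 3 differed by 0.07. 

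Lncenc1 lies near Enc1, a gene of a neuronal actin-binding protein, on chromosome 13. The nearest genes with a probe set of their own, in RefSeq order, were Enc1 and Gfm2 on 1 side and 5330416C01Rik and Utp15 on the other. Enc1 read 10.56, 10.56 and 10.59 with PBS and 10.39, 10.43 and 10.37 with VPA. Its groups did not overlap, but the fall was small, at -0.17 (SE 0.05, adjusted p = 0.0370 by limma over all genes). The call was lost after quantile normalization (adjusted p = 0.0959) and without any 1 array other than VPA replicate 1 (adjusted p = 0.0633 to 0.131). Gfm2, a mitochondrial elongation factor gene, differed by -0.14 (SE 0.06, adjusted p = 0.100), and passed without VPA replicate 1 (adjusted p = 0.0291). The non-coding gene 5330416C01Rik differed by 0.07 (SE 0.06) and Utp15, a ribosome biogenesis gene, by -0.03 (SE 0.07), with overlapping groups in both. The fall of Lncenc1 was far larger than the difference of any of these 4 neighbours. Because Lncenc1 was chosen with its fall known, that outcome was largely set by the choice, and the contrast was not tested. Between Lncenc1 and the nearest measured genes lay other RefSeq genes, 2 on the side of Enc1 and 5 on the other.

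The 5 genes whose profile over the 6 arrays was most like that of Lncenc1 were Lgi1, Mir135a-2, Eomes, Dmbx1 and Sphkap. Likeness was the root mean square difference of log2 values centred on each gene's mean, over 6 arrays and among 18631 genes with a proper name. It was 0.0984 for Lgi1, 0.115 for Mir135a-2, 0.134 for Eomes, 0.135 for Dmbx1 and 0.154 for Sphkap. The ranking rests on the 2 groups and on the size of their difference, since all 6 arrays of these genes fall into the same clusters. Lgi1, an epilepsy gene with a secreted product, read 7.90, 8.21 and 8.25 with PBS and 6.02, 6.15 and 6.08 with VPA. Its lowest PBS array was replicate 1, as for Lncenc1, and its VPA mean, 6.09, lay below the gauge. Dmbx1, a homeobox gene of the midbrain, read 9.17, 8.99 and 9.10 and then 7.12, 7.37 and 7.24; its highest VPA array was replicate 2, again as for Lncenc1, while its highest PBS array was replicate 1, the lowest for Lncenc1. Eomes, a T-box gene of cortical intermediate progenitors, fell by 1.95 on the log2 scale (SE 0.09) and Sphkap, a kinase-anchoring protein gene, by 2.06 (SE 0.06). Mir135a-2 fell by 1.75 (SE 0.08) from a PBS mean of 6.35 to a VPA mean of 4.60, below the gauge, where signal and background are not told apart. Among the 9 other pluripotency genes the closest to Lncenc1 was Esrrb, at 0.928, and the farthest Dppa3, at 1.08.

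**Figure D3:**
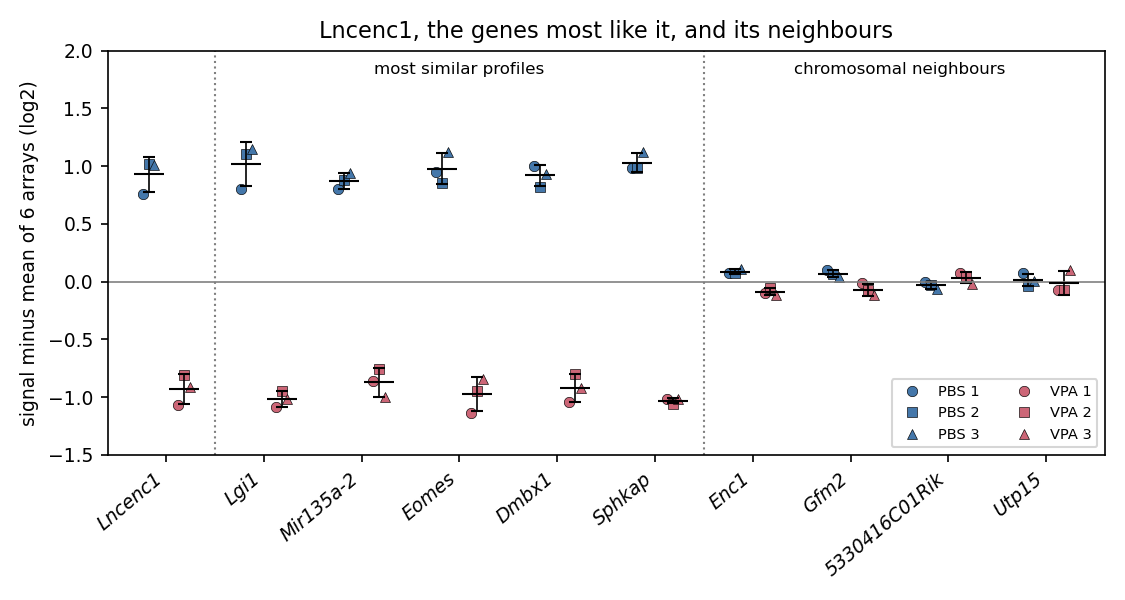
Signal of each array minus the gene's mean over 6 arrays (log2, vertical axis) for Lncenc1, the 5 genes with the most similar profile and the 4 nearest chromosomal neighbours with a probe set, with group means and SD. The similar genes repeat the separation of PBS (blue) and VPA (red) by about 2 log2 units, and the neighbours stay within 0.2 of 0.

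The rest of the naive pluripotency network was measured by 28 genes, of which 9 rose and 1 fell with VPA by limma, with a median change of 0.05. The share of all genes past the same threshold, 29.2%, stands beside this count and those of the lists that follow, some of which share genes such as Nodal. That share was lower for genes below the gauge, at 13.3%, and the lists differ in how many dim genes they hold. Stat3, the transcription factor of LIF signalling, went from 9.91 ± 0.04 to 10.57 ± 0.04 (log2, SD, n = 3), a rise of 0.66 (SE 0.06, adjusted p = 4.65e-05). The LIF receptor gene Lifr rose by 0.60 (SE 0.07) and its partner Il6st (gp130) by 0.50 (SE 0.06). Tbx3, a T-box repressor also found in mesenchyme, rose by 0.65 (SE 0.06) from 6.60 to 7.25. The other genes named here were picked after their values were seen. Socs3, the feedback inhibitor of the LIF pathway, differed by 0.01 (SE 0.07, adjusted p = 0.924 by limma). Sall4, a zinc-finger partner of Oct4, rose by 0.40 (SE 0.06), Tcf7l1, a Wnt pathway repressor, by 0.39 (SE 0.08) and the Krueppel-like factor genes Klf5 and Klf4 by 0.25 (SE 0.06) and 0.21 (SE 0.05). Tet1, which oxidizes methylated DNA, fell by 0.24 (SE 0.05).

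Sox2, the partner of Oct4 that neural progenitors keep expressing, was high in both groups, at 10.80, 10.71 and 10.76 with PBS and 10.92, 10.89 and 10.90 with VPA. The groups did not overlap, and the difference of 0.15 (SE 0.05) missed the threshold (adjusted p = 0.0734 by limma). It passed under 5 of 14 alternatives, among them quantile normalization (adjusted p = 0.0370 by limma). Dppa2, which lies below the gauge in both groups, rose by 0.32 (SE 0.10), and with the mean of its probe sets by 0.13 with no call (adjusted p = 0.365). The calls of Klf4, Klf5 and Dppa2 were lost when single arrays were left out: Klf4 without any 1 PBS array, Klf5 without PBS replicate 2 or 3, and Dppa2 without any 1 array but VPA replicate 1. Of the 28 genes 7 had both means below the gauge.

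Genes of the primed epiblast, the state that follows naive pluripotency, gave 15 measured genes of 16, of which 5 fell and 1 rose (median -0.05). The genes that fell were Eomes, named above, and Otx2, a head and forebrain homeobox gene, which fell by 1.24 on the log2 scale (SE 0.11), together with the Wnt effector Lef1, which fell by 0.95 (SE 0.08). The Wnt ligand gene Wnt3 and the zinc-finger gene Zic2, named with their values known, fell by 0.87 (SE 0.08) and 0.82 (SE 0.09). Foxd3, a gene of the epiblast and the neural crest, rose by 0.98 (SE 0.10) from 6.34 to 7.32.

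Lin28a and Lin28b act on let-7, and genes that let-7 represses were measured beside them. Lin28b read 7.60, 7.57 and 7.60 with PBS and 7.60, 7.53 and 7.55 with VPA, a difference of -0.03 (SE 0.05) whose 95% confidence interval ran from -0.15 to 0.09. The groups overlapped. Of the 22 measured genes of 26 in this list 3 rose and 4 fell (median -0.10), and without VPA replicate 1, 9 were called in place of 7. Of the 3 that rose, the growth factor gene Igf2 rose by 1.87 (SE 0.08, adjusted p = 2.13e-06 by limma). The chromatin protein gene Hmga2 rose by 1.41 (SE 0.07) and the RNA-binding protein gene Igf2bp1 by 0.70 (SE 0.07). Igf2bp3 and Trim71, named with their values known, differed by 0.12 (SE 0.05) and 0.17 (SE 0.07). Neither was called (adjusted p = 0.122 and 0.0814 by limma). A part of let-7 in any of these changes was not tested. Hmga2 read 7.72, 7.66 and 7.52 with PBS and 9.13, 8.96 and 9.04 with VPA, with no overlap. Dis3l2, named with its values known, is the gene of the exonuclease that degrades let-7 precursors tagged after Lin28 binding. It fell by 0.20 (SE 0.05), a call lost after quantile normalization (adjusted p = 0.0565) and without PBS replicate 2 or 3 or VPA replicate 2 or 3.

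The let-7 precursor genes were measured by 10 probe sets, which do not report the mature strands. Of these 3 fell, and Mirlet7i, 0.17 higher with VPA (SE 0.06), missed the threshold at an adjusted p of 0.0502 by limma. Their changes ran from -0.40 to 0.20, with a median of -0.18, and 6 of the 10 had both means below the gauge. The mature forms that these 3 genes encode are given from RefSeq (GRCm38.p6) to show the seed, bases 2 to 8 in capitals, through which the family finds its targets. Mirlet7a-2 and Mirlet7f-2 encode the same let-7a-5p and let-7f-5p and did not pass the threshold: they differed by 0.20 (SE 0.08) and 0.01 (SE 0.08), with both means below the gauge.
let-7f-5p: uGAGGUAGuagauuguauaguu
let-7a-5p: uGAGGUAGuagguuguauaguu
let-7c-5p: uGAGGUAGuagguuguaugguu
miR-135a-5p: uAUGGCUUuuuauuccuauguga

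The 3 let-7 forms share the seed GAGGUAG, and miR-135a-5p, the product of the Mir135a-2 gene that resembled Lncenc1, has the seed AUGGCUU. Mirlet7f-1 fell by 0.40 (SE 0.06), but both of its means, 5.13 and 4.73, lay below the gauge. Mirlet7c-1 fell by 0.31 (SE 0.06) from 7.54 to 7.23, above the gauge. Mirlet7a-1 fell by 0.20 (SE 0.06) below the gauge, a call lost with each array centred on its median (adjusted p = 0.0576), with the trend and robust variance model (adjusted p = 0.0619) and without any 1 array other than PBS replicate 1. Mirlet7c-1 and Mirlet7a-1 were named after their values were seen.

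**Figure D4:**
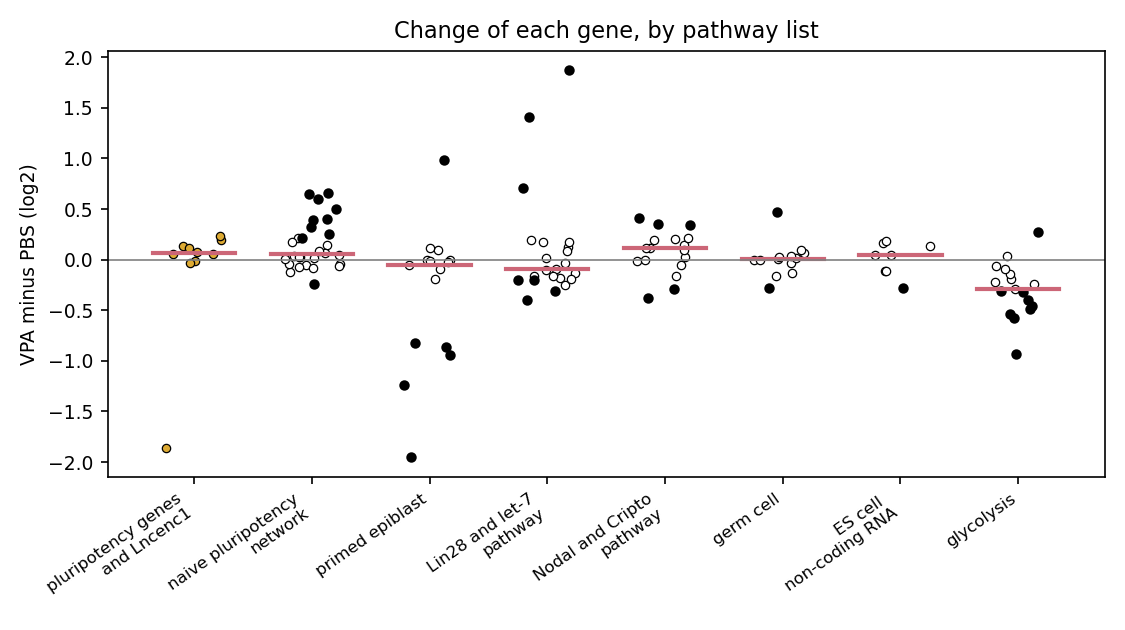
Change of each gene (VPA minus PBS, log2, vertical axis) for the 10 pluripotency genes (yellow, no test) and for 7 lists of related genes; filled points passed an adjusted p of 0.05, open points did not, and the red bars are medians. The yellow points lie between -0.03 and 0.24 except Lncenc1 at -1.86, and glycolysis has the lowest median, -0.29.

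Nodal signalling, for which Cripto is the co-receptor, was represented by 17 measured genes of 19, of which 3 rose and 2 fell (median 0.12). The ligand gene Nodal itself differed by -0.01 (SE 0.06) with both means below the gauge, and Foxh1, its nuclear partner, by -0.00 (SE 0.06), also below it. Smad3, a signal transducer shared with TGF-beta, rose by 0.41 (SE 0.08) and Hspa5, the chaperone GRP78 that binds Cripto at the cell surface, by 0.35 (SE 0.06). The receptor genes Acvr2b and Acvr1b fell by 0.38 (SE 0.10) and 0.29 (SE 0.06). Lefty2, a Nodal antagonist, rose by 0.34 (SE 0.09) with both means below the gauge. Without PBS replicate 1 only 3 of the 17 were called, and the calls of Acvr2b and Lefty2 were among those lost; Acvr2b was also lost without PBS replicate 2, VPA replicate 2 or VPA replicate 3, and Lefty2 without PBS replicate 3 or VPA replicate 3. Nodal, Foxh1 and Acvr1b were named after their values were seen.

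Germ cell genes, measured because Dppa3 also marks that lineage, were low: 10 of 13 had both means below the gauge. Prdm1, a repressor that starts the germ cell programme and acts in other tissues, rose by 0.47 (SE 0.11). Its means, 5.44 and 5.91, both lay below the gauge. Nanos3, needed for germ cell survival, fell by 0.28 (SE 0.07) from 7.40 to 7.12. The remaining 11 were not called, and without PBS replicate 1 only 1 of the 13 was (Nanos3 lost its call, adjusted p = 0.0666). Of the non-coding RNA genes of embryonic stem cells 8 of 43 had a probe set of their own. Platr25 fell by 0.28 (SE 0.06) from 7.08 to 6.80, a call lost without PBS replicate 2 (adjusted p = 0.0523), and without VPA replicate 1 there were 3 calls in the list. The 5 precursor genes of the miR-302 and miR-367 cluster, which is specific to pluripotent cells, all lay below the gauge in both groups and were not called.

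Glycolysis genes were examined because Lncenc1 has been linked to them in stem cells. Of 17 measured genes of 20, 8 fell and 1 rose, with a median of -0.29. The phosphofructokinase genes Pfkp and Pfkl, which encode the main regulated step, fell by 0.93 (SE 0.08) and 0.57 (SE 0.07). Pgk1, a phosphoglycerate kinase gene, fell by 0.53 (SE 0.06) and the neuronal glucose transporter gene Slc2a3 by 0.48 (SE 0.08). Pfkp read 10.89, 11.01 and 10.94 with PBS and 10.17, 9.95 and 9.93 with VPA, without overlap. Aldoc, a brain aldolase gene picked with its values known, rose by 0.27 (SE 0.08), a call lost without PBS replicate 1 or 2 or VPA replicate 1 or 3. All 17 genes lay above the gauge in both groups. Lncenc1 and these genes were measured in the same arrays and the same contrast, so their common direction is no evidence of a link.

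As a check on what the cultures held, all 8 markers of undifferentiated stem cells, which are the pluripotency genes without Lin28a and Lncenc1, had means below the gauge in both groups. Their mean signal was 5.42 to 5.68 over the PBS arrays and 5.55 to 5.75 over the VPA arrays. The 12 neural progenitor and 10 neuron markers all lay above the gauge. Among markers of other early lineages, 4 of 8 trophoblast and 3 of 8 primitive endoderm genes lay below the gauge in both groups. The label of pluripotency genes thus describes what these genes do in stem cells; in these cultures Lin28a and Lncenc1 were the 2 with signal above background.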

How the data were processed

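Per the labels, RNA was taken with Trizol from 3 PBS and 3 VPA cultures and run on whole-transcript arrays. The authors deposited normalized values per probe set, read here as log2 from their range, 2.50 to 13.89. Partek 6.5 and mm9 are named by the submitters' processing notes, without saying for which step; how background and arrays were adjusted is not stated there. Normalization between arrays makes each change relative to other genes.

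Of 35556 probe sets, GEO's platform annotation gave 21789 a single gene symbol, 1621 several and 12146 none. Entrez IDs updated 21698 symbols through the GRCm38.p6 RefSeq table, and 91 stayed as given. The brightest probe set stood for each gene. Both groups were compared in limma 3.58.1 (R 4.3.3; lmFit, eBayes, no covariates), adjusted by Benjamini-Hochberg over 19938 genes; every adjusted p and moderated SE is from limma. The fit was tested on simulated data with independent noise for each gene. Those data held no differences between whole arrays, such as that of VPA replicate 1, so the test does not cover them. With 3 arrays a group, the number of arrays limits how precise a value is.

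The members and lists were chosen with earlier results of these data known. Named by rule were the 10 members, in each list up to 4 called genes of largest change (or the 2 of smallest p), the 5 genes most like Lncenc1, 2 neighbours on each side, and Lin28b, Sox2 and Igf2bp1. Sequences are RefSeq's. Alternatives were quantile normalization, median centring, dim-gene filters (30th percentile, 50th percentile, gauge), a trend and robust variance model, a replicate block, averaged probe sets, and leaving out each array.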

Additional observations from a re-analysis of the deposited data

How the results depend on the processing

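The difference of Lncenc1, which took part in its choice, ran from -1.95 to -1.79 over 14 alternatives; its stability is no independent support. All 115 values of the 10 genes under the alternatives moved by less than 1 replicate SD. For most of these values that outcome was fixed in advance. Leaving out 1 of 3 arrays cannot move a difference that far, and the filters, the variance model and the block leave it unchanged. Median centring moves every difference by the same small amount, and averaged probe sets change only Dppa3, the only one of the 10 with another probe set. Apart from that value of Dppa3, only quantile normalization could have moved a value further. The filters on dim genes removed the 8 genes below the gauge, and that at the 50th percentile also removed Lin28a, so those have no value there. Of 48 other named genes none changed sign with a call; 11 lost a call under at least 1 alternative and 2 gained one, and 37 of the 44 lost calls came from leaving out 1 array. The count of genes called, 5825, ran from 3836 (without PBS replicate 2) to 8173 (without VPA replicate 1), and that of probe sets, 6640, from 4273 to 9599. With 1 array left out, calls ran from 3 to 7 in the Nodal list, from 1 to 2 in the germ cell list and from 0 to 3 among non-coding RNA genes. In the germ cell list 1 gene was called with filters at the 30th percentile and at the gauge and 0 at the 50th percentile, and among non-coding RNA genes 0 at the 50th percentile, because the filters removed dim genes. By the same limma fit on all genes these lists had 2 calls and 1. Quantile normalization moved the median of all genes to 0.0164.

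Replicate numbers did not pair the arrays: the deviations of same-numbered arrays correlated at -0.0199, -0.00849 and 0.0196. With the replicate number as a block, 5410 genes were called, 1 of the 10 members among them, and the calls of Enc1 (adjusted p = 0.0819) and Mirlet7a-1 (adjusted p = 0.0544) were lost. No other named call changed with the block. Signals near background limit what can be said of the 8 dim genes.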
